A study of Mus musculus with 28 samples.

Results

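The core circadian clock genes were followed in mouse CD4+ T cells cultured with or without the cytokines that together drive Th9 cells. The 10 genes were *Arntl* (BMAL1), *Clock*, *Npas2*, *Per1*, *Per2*, *Per3*, *Cry1*, *Cry2*, *Nr1d1* (REV-ERBα) and *Nr1d2* (REV-ERBβ). They were chosen by name, as the members of the core clock loop, and all 10 were listed among the 24089 genes of the deposited RNA-seq table. The T cells were taken to come from Tgfbr1 f/f mice that carried a tamoxifen-inducible Cre. In that line WT cells are from mice given oil. KO cells are from mice given tamoxifen, which deletes the TGF-β type I receptor gene. The DNase-seq titles name oil and tamoxifen, and the RNA-seq titles name only WT or KO. The paper also lists a Cd4-cre line and does not say which line the RNA-seq used. With tamoxifen given to KO mice alone, a difference between KO and WT cannot be told apart from an effect of tamoxifen itself. Whether WT and KO libraries shared a sequencing run was not given in the sources used here, so a difference between runs was not tested either. Naïve CD4+ T cells were stimulated through CD3 and CD28 in every culture, the controls included. The 4 cultures received no cytokine (control), TGF-β alone, IL-4 alone or both, each in 3 replicates per genotype. That gives 24 RNA-seq libraries in 8 groups. The labels number the replicates of each genotype from 1 to 3. This number is taken as the mouse throughout, which the labels do not state. DNase-seq, which maps open chromatin, was done on 4 further libraries, 1 each for the control and the TGF-β plus IL-4 cultures of a WT and a KO mouse. The time of day of tissue collection was not given in the sources used here.

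The clock loop runs on transcription. BMAL1 pairs with CLOCK, or with its paralogue NPAS2, on E-box sequences and activates the *Per* and *Cry* genes, whose proteins return to the nucleus and repress the pair. REV-ERBα and REV-ERBβ are nuclear receptors whose genes are also E-box targets and which repress *Arntl*, while the related ROR receptors compete for the same elements and activate it. DBP and NFIL3, which act at D-box elements, carry the rhythm on to further genes.

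The headings of the RNA-seq table conflicted with the study's own read counts, and this decides the RNA-seq values given by culture below. A supplement of the study lists raw reads for 8 WT libraries by library number. Genes with no reads in a given library were compared with genes at 0 in each table column. All 8 libraries matched the column at their place in library-number order, whereas 2 of 8 matched the column carrying their own heading and 6 matched a column headed as another library. The columns were therefore read by position in library-number order (WT first, then KO, with each block of 4 holding 1 mouse's control culture followed by TGF-β, then IL-4, then the combination). Read in this way, 8 of 24 columns kept the culture of their heading. For 4 WT columns and all 12 KO columns no such counts were available, so their assignment rests on the same order and was not checked. With the columns taken as headed, no clock gene was called in any comparison.

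The deleted gene was checked first. *Tgfbr1* stood at 3.02 to 3.31 RPKM (reads scaled by gene length and library size) in the 3 WT control libraries and at 13.9 to 14.5 in the WT TGF-β libraries. In the WT IL-4 libraries it stood at 3.48 to 3.94 and in the WT TGF-β plus IL-4 libraries at 17.6 to 20.7. The 12 KO libraries lay between 2.32 and 5.18, so the KO control libraries were close to the WT controls, and the KO libraries with TGF-β had none of the high values of the WT libraries with TGF-β. Reads over exons outside the deleted part still count, so the level alone does not show the deletion. The 5 T-cell markers (*Cd3d*, *Cd3e*, *Cd3g*, *Cd4*, *Cd28*) summed to 752 to 1032 RPKM in every library. In WT cells the sum was 805 to 865 in control, 766 to 783 with TGF-β and 942 to 1032 with both cytokines. In KO cells it was 923 to 953 in control and 817 to 881 with both. The 4 myeloid markers summed to 4.63 to 6.79 in WT control, 6.99 to 19.6 in WT TGF-β, 1.32 to 2.71 in KO control and 2.08 to 11.6 in KO TGF-β, and *Csf1r* among them was at 0 in at least 1 library. With both cytokines the myeloid sum was 8.13 to 17.7 in WT and 3.21 to 5.41 in KO cells. The 2 CD8 T-cell markers also moved with the cultures, from 24.8 to 26.9 in WT control to 16.6 to 17.3 with TGF-β and 29.9 to 36.3 with IL-4, and from 14.8 to 16.7 in KO control to 26.3 to 27.2 with IL-4. The 3 NK-cell markers summed to 3.28 to 3.38 in WT control, 1.03 to 1.34 with TGF-β and 5.23 to 7.15 with IL-4. The 4 B-cell markers summed to 14.4 to 22.5 in WT control and 9.07 to 10.5 in KO control, and the 3 dendritic-cell markers to 0.796 to 2.95 over all libraries. With both cytokines the B-cell sum was 15.7 to 33.3 in WT and 14.8 to 26.0 in KO cells. The 3 red-cell markers were at most 0.314 in each KO library and reached 21.98 in WT control and 14.6 in WT IL-4, nearly all of it *Hba-a1*. The part of these cells in the results below was not tested. These are bulk samples, in which fewer cells expressing a gene and less RNA per cell cannot be told apart.

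By mean RPKM over the 24 libraries the 10 genes stood in the order *Cry1*, *Per1*, *Arntl*, *Npas2*, *Cry2*, *Nr1d2*, *Nr1d1*, *Per2*, *Clock* and *Per3*. *Cry1* ranged from 15.4 to 22.2 and *Per1* from 4.64 to 7.65. *Arntl* ranged from 1.95 to 8.31, *Npas2* from 0.507 to 6.75, *Cry2* from 1.94 to 3.00, *Nr1d2* from 1.53 to 3.32 and *Nr1d1* from 0.373 to 2.89. The last of them were *Per2* at 0.383 to 0.941, *Clock* at 0.334 to 0.856 and *Per3* at 0.106 to 0.377. RPKM is scaled by gene length, so these levels can be set side by side, and every neighbouring pair in this order except *Cry1* and *Per1* had overlapping ranges. *Npas2* was above its paralogue *Clock* in 23 of 24 libraries. The read numbers recovered from the steps of the RPKM values were 18 to 50 per library for *Per3* and 66 to 508 for *Nr1d1*, against 1859 to 4520 for *Cry1*. Those of *Arntl*, *Clock* and *Per1* were not recovered.

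**Figure D1:**
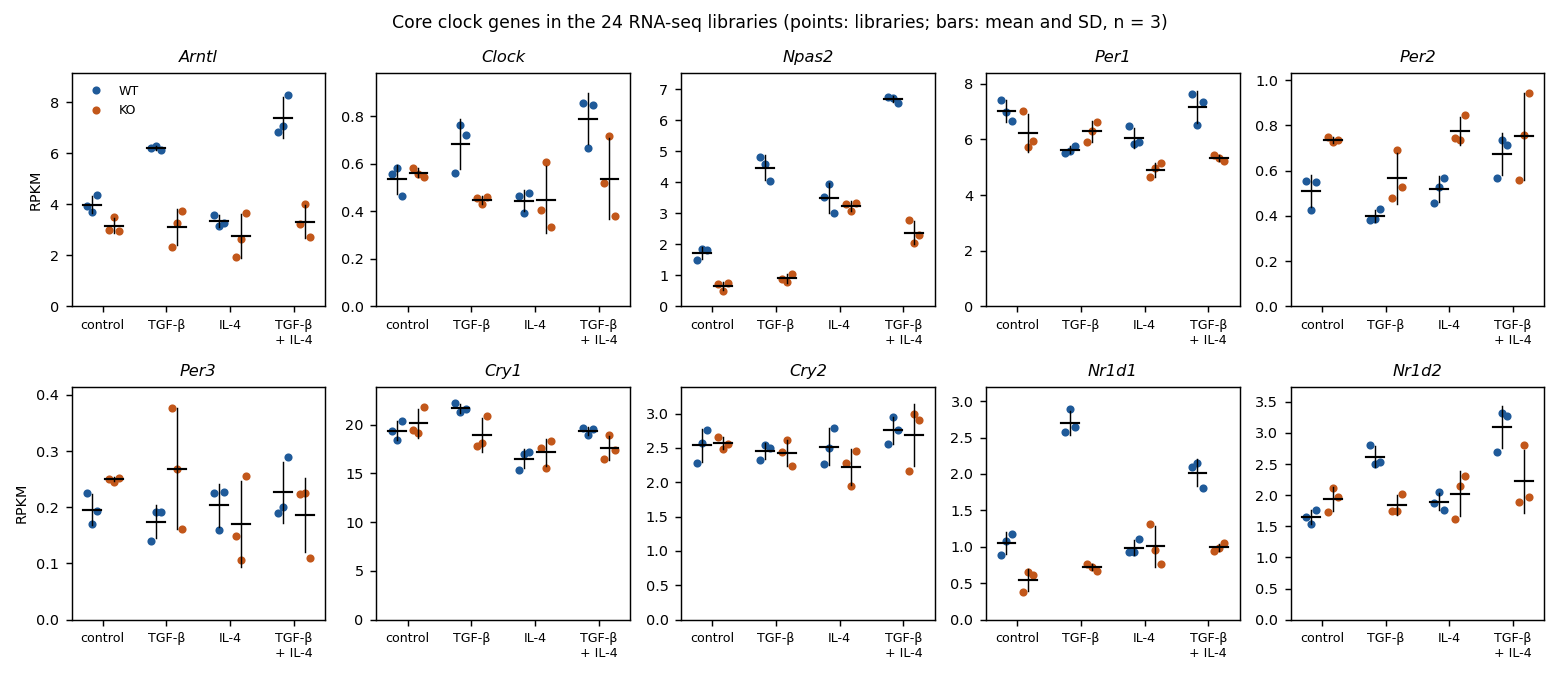
RPKM of the 10 core clock genes in the 4 cultures (x axis) of WT (blue) and KO (orange) cells, with 1 point per library and bars for the mean and SD of 3 libraries. From WT control to WT TGF-β the mean goes from 1.72 to 4.47 for *Npas2* and from 3.99 to 6.22 for *Arntl*. It goes from 1.05 to 2.70 for *Nr1d1* and from 1.65 to 2.62 for *Nr1d2*. *Cry1* goes from 19.4 to 21.7 and *Per1* from 7.02 down to 5.63. Over all libraries *Cry1* lies between 15.4 and 22.2.

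The 250 bases before the annotated start of each gene are shown for *Arntl*, *Nr1d1* and *Nr1d2*, which were called in at least 1 comparison below, and for *Per1* and *Cry1*, which carry a canonical E-box there. They are from the mm9 genome, 5′ to 3′ along the gene, and capitals mark any match to the motifs searched. Those were the E-box CACGTG, the related E′-box CACGTT, the D-box forms TTATGTAA and TTACGTAA bound by DBP and NFIL3, the ROR/REV-ERB core TAGGTCA, a STAT motif (TTC and GAA spaced by 4 bases) and the SMAD palindrome GTCTAGAC, each on both strands.
Arntl: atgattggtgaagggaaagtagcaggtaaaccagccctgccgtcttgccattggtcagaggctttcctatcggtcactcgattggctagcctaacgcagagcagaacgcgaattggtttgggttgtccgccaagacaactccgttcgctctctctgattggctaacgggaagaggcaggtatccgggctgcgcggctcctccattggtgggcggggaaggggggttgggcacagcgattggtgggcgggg
Nr1d1: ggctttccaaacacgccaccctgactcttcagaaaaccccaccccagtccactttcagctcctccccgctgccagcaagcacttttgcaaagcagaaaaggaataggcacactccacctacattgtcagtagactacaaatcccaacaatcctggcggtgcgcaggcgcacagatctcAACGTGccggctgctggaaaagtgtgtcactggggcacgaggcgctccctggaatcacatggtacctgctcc
Nr1d2: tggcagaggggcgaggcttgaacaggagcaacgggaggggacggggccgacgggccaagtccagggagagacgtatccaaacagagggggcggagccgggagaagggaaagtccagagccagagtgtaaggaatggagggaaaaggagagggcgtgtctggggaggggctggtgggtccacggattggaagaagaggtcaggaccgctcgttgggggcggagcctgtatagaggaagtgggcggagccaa
Per1: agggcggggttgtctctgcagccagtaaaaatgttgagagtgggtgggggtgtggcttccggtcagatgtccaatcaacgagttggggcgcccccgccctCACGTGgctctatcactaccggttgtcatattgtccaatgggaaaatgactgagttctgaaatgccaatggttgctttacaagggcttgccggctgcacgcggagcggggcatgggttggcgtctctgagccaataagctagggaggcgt
Cry1: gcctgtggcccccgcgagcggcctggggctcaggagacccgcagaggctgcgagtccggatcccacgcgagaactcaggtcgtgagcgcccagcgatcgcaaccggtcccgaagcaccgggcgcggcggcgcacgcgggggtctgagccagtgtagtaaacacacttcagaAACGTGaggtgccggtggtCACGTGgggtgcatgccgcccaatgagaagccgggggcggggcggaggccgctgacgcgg
The window of *Arntl* is chr7:120350729-120350978 (+), that of *Nr1d1* chr11:98636648-98636897 (−), of *Nr1d2* chr14:19071642-19071891 (−), of *Per1* chr11:68908469-68908718 (+) and of *Cry1* chr10:84647800-84648049 (−).

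CACGTG was found in this window in 2 of the 9 clock genes read (all but *Npas2*), *Per1* and *Cry1*, and in 8.84% of the 9049 tested genes that the mm9 annotation (GENCODE) names. The E-box began 150 bases before the start of *Per1* and 60 before that of *Cry1*. CACGTT, printed as AACGTG where it lies on the other strand, was found in *Cry1*, *Cry2* and *Nr1d1* and in 4.92% of all genes. TTATGTAA was found in *Per2* and *Per3*, against 0.497% of all genes. The windows of *Arntl* and *Nr1d2* held no match to any of the 7 motifs. None of the 9 held TAGGTCA (1.57% of all genes), the STAT motif (4.75%), GTCTAGAC (0.199%) or TTACGTAA (0.166%) in this window, which says nothing of elements elsewhere.

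Whether TGF-β alone altered the clock genes was examined in WT cells. *Npas2* and *Nr1d1* rose, *Arntl* and *Nr1d2* moved the same way by less than 1.5-fold on the scale tested, and the *Cry* genes were not called. Here and below, a gene was called when limma gave a Benjamini-Hochberg adjusted p below 0.01 and a fold above 1.5 on the log2(RPKM + 1) scale, which understates the fold of low genes. With TGF-β, 2 of 7 tested clock genes were called higher and 0 lower, against 3.47% higher and 2.34% lower among all 9794 genes tested. The median difference of the 7 was 0.45 and that of all genes 0.01. *Clock*, *Per2* and *Per3* averaged under 1 RPKM and were outside the test.

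*Npas2* was at 1.502, 1.84 and 1.83 RPKM in the 3 WT control libraries, 4.80, 4.57 and 4.03 with TGF-β, 3.54, 3.94 and 3.00 with IL-4, and 6.75, 6.71 and 6.56 with both cytokines. The 4 WT groups did not overlap one another. NPAS2 can replace CLOCK as the partner of BMAL1. TGF-β raised *Npas2* by 1.01 (SE 0.087, adjusted p = 2.26e-06) on the log2(RPKM + 1) scale, a ratio of mean RPKM of 2.59. IL-4 raised it by 0.72 (adjusted p = 1.99e-04) and both together by 1.497 (adjusted p = 6.07e-08), a ratio of mean RPKM of 3.87. The IL-4 call was lost without mouse 1 (0.65, adjusted p = 0.0345). TGF-β plus IL-4 exceeded IL-4 by 0.78 (adjusted p = 1.77e-05) and exceeded TGF-β by 0.49 (adjusted p = 0.00195), the last below the fold asked for. The interaction of the cytokines on *Npas2* was −0.23 (95% interval −0.50 to 0.04, adjusted p = 0.265).

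*Arntl* was at 3.93, 3.68 and 4.36 RPKM in WT control, 6.22, 6.30 and 6.13 with TGF-β, 3.601, 3.15 and 3.27 with IL-4, and 6.83, 7.08 and 8.31 with both. The libraries with TGF-β were all above those without it, and IL-4 alone left *Arntl* slightly below control. The increase with TGF-β plus IL-4 was 0.75 over control (SE 0.078, adjusted p = 9.34e-06) and 0.95 over IL-4 (adjusted p = 1.17e-06). With TGF-β alone the difference from control was 0.53 (adjusted p = 2.49e-04), equal to a 1.45-fold on the scale tested and a ratio of mean RPKM of 1.56. With a pseudocount of 0.1 in place of 1, or without mouse 3, this difference was called (0.63 and 0.60).

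*Nr1d1* was at 0.887, 1.08 and 1.18 RPKM in WT control and at 2.58, 2.89 and 2.64 with TGF-β. It was at 0.929, 0.927 and 1.11 with IL-4 and at 2.10, 2.15 and 1.81 with both cytokines. The IL-4 libraries overlapped control, and the libraries with both cytokines lay between control and TGF-β alone. TGF-β raised *Nr1d1* by 0.86 (SE 0.078, adjusted p = 3.72e-06), a ratio of mean RPKM of 2.57. Both cytokines together exceeded IL-4 by 0.60 (adjusted p = 5.61e-05), just past the fold asked for and below it without mouse 1 (0.56) or mouse 2 (0.55), and differed from control by 0.56 (adjusted p = 1.05e-04), just short of it. This last difference was called with a pseudocount of 0.1 (0.89) and without mouse 3 (0.66). *Nr1d1* (chr11:98629246-98636647, minus strand) shares 263 exonic bases with *Thra* on the opposite strand, and the counting was not stated to use strand. *Thra* itself averaged 0.252 RPKM in the WT control libraries against 0.512 with TGF-β.

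*Nr1d2* was at 1.66, 1.53 and 1.76 RPKM in WT control and at 2.81, 2.51 and 2.54 with TGF-β. It was at 1.88, 2.05 and 1.77 with IL-4 and at 2.70, 3.32 and 3.27 with both. As with *Arntl*, every WT library with TGF-β was above every WT library without it. The increase with both cytokines was 0.63 (SE 0.077, adjusted p = 3.70e-05) and was called, though not without mouse 2 (0.55, adjusted p = 0.00209). With TGF-β alone the difference was 0.45 (adjusted p = 8.73e-04), which was not called at a pseudocount of 1 and was called at 0.1 (0.64).

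The repressor genes of the PER and CRY families were called in no WT comparison. *Per1* was at 6.65 to 7.41 RPKM in WT control, 5.52 to 5.78 with TGF-β, 5.82 to 6.47 with IL-4 and 6.52 to 7.65 with both. The difference was −0.27 with TGF-β (adjusted p = 0.0109) and 0.02 with both cytokines. Its cytokine interaction of 0.48 had an adjusted p of 0.00887 but a 1.40-fold size. *Cry1* differed by 0.15 with TGF-β and −0.22 with IL-4 (adjusted p = 0.0594 and 0.0270), and *Cry2* by −0.03 and −0.01. In a fit with no filter on low values, *Clock*, *Per2* and *Per3* were called in no comparison. Their levels were below the pseudocount of 1, which made the fold asked for hard to reach, so this does not show that they were unchanged. In that fit *Clock* differed by 0.31 between TGF-β plus IL-4 and IL-4 (adjusted p = 0.00265), and *Per2* by 0.26 between TGF-β plus IL-4 and TGF-β (adjusted p = 0.00827), both below the fold asked for. *Clock* was at 0.464, 0.395 and 0.476 RPKM with IL-4 and at 0.856, 0.669 and 0.848 with both. *Per2* was at 0.383, 0.387 and 0.429 RPKM with TGF-β and at 0.568, 0.736 and 0.715 with both, a ratio of mean RPKM of 1.68.

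Over the WT comparisons with IL-4 alone, 1 of 7 clock genes was called higher (*Npas2*) and 0 lower, against 0.96% and 0.449% of all genes. With TGF-β plus IL-4, 3 of 7 were called higher (*Arntl*, *Npas2*, *Nr1d2*) against 6.37% of all genes, and 0 lower against 2.84%. Against IL-4 alone, TGF-β plus IL-4 gave 3 of 7 higher (*Arntl*, *Npas2*, *Nr1d1*), with 6.11% of all genes higher. Against TGF-β alone it gave 0 of 7 in either direction by limma, with 2.99% of all genes called. At an unadjusted limma p below 0.05 there were 6 of 7, beside 3575 of all 9794 genes. No clock gene was called by limma for an interaction of TGF-β and IL-4 in WT cells, against 1.77% of all genes. For that interaction 3 of 7 were at an unadjusted p below 0.05, beside 2617 of all 9794 genes. These comparisons share the same 12 libraries.

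**Figure D2:**
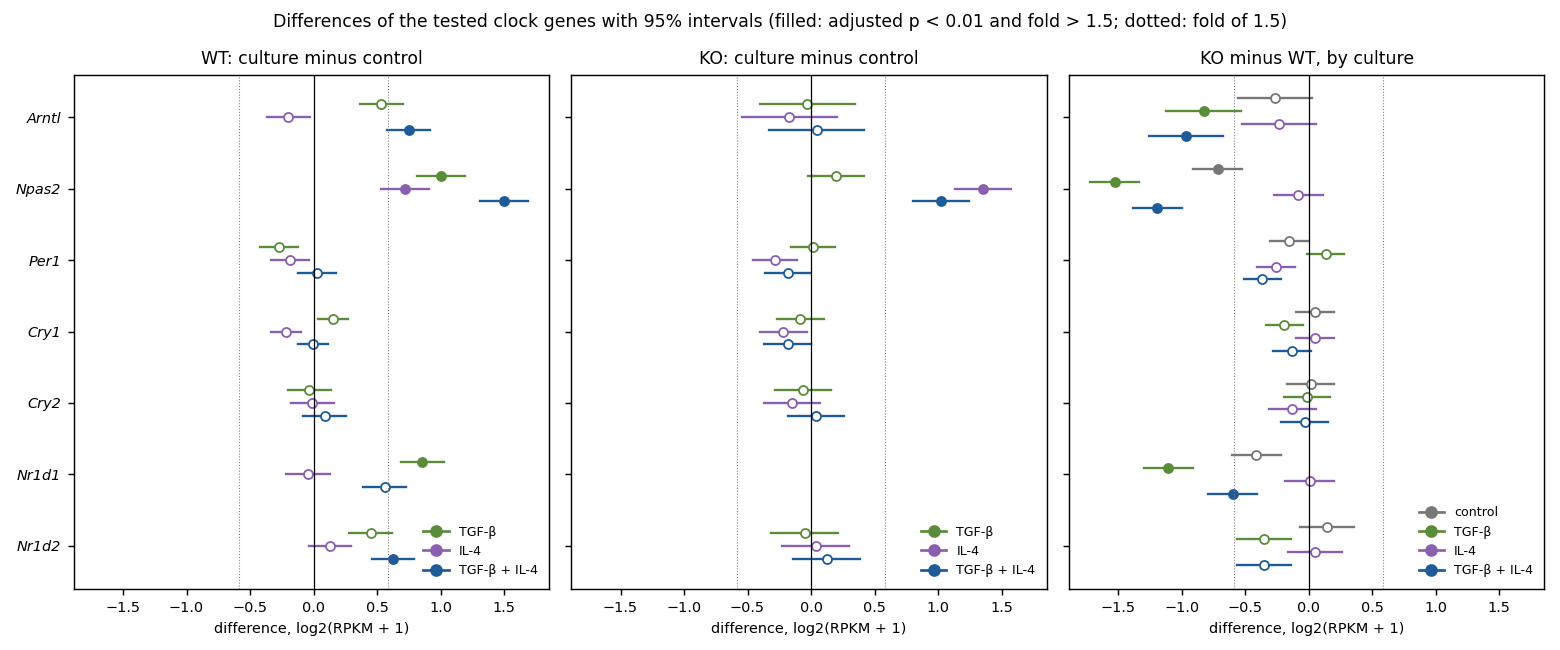
Differences in log2(RPKM + 1) of the 7 tested clock genes with 95% intervals, for each culture against control in WT and in KO cells and for KO against WT in each culture. Filled points passed both thresholds, and dotted lines mark a fold of 1.5. In KO cells only the *Npas2* differences with IL-4 (1.36) and with both cytokines (1.02) are filled, and *Nr1d1* is absent from that panel because it averaged under 1 RPKM there.

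The same cultures were next examined in KO cells, whose columns could not be checked against read counts. With TGF-β, limma called 0 of 6 tested clock genes and 2 of 9620 genes in all (0.0208%). None of the 6 was at an unadjusted p below 0.05, beside 174 of the 9620 genes. The *Npas2* difference was 0.20 (95% interval −0.02 to 0.42) and that of *Arntl* −0.03 (−0.41 to 0.34). IL-4 still raised *Npas2*. It was at 0.718, 0.507 and 0.747 RPKM in KO control, 0.886, 0.776 and 1.04 with TGF-β, 3.29, 3.06 and 3.35 with IL-4, and 2.79, 2.05 and 2.28 with both cytokines. The libraries with IL-4 were all above those without it. The increase was 1.36 with IL-4 (SE 0.10, adjusted p = 2.75e-06), a ratio of mean RPKM of 4.92, and 1.02 with both (adjusted p = 2.85e-05). *Npas2* was the 1 called clock gene of 6 in each, where 1.48% and 1.68% of all genes were called higher. It was among the 6 only because its KO cultures with IL-4 (means of 3.23 RPKM alone and 2.37 with TGF-β) lifted it past the filter. In KO control and with TGF-β alone it averaged under 1 RPKM, so the count of 1 of 6 depends on the cultures compared. With no filter limma kept both calls (adjusted p = 2.60e-05 and 1.67e-04).

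*Arntl* spanned 1.95 to 4.0 RPKM over the 12 KO libraries and its 4 KO cultures overlapped. *Nr1d1* was at 0.373 to 0.649 in KO control, 0.674 to 0.765 with TGF-β, 0.762 to 1.32 with IL-4 and 0.947 to 1.05 with both. It averaged under 1 RPKM in KO cells and was outside the test. With no filter its difference from control was 0.37 with IL-4 (adjusted p = 0.0721) and 0.37 with both (adjusted p = 0.0734). *Nr1d2* differed from KO control by −0.05, 0.04 and 0.12 in the 3 cytokine cultures, none called.

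KO and WT cells were then compared in each culture. *Npas2* was lower in KO than in WT control cells, by −0.72 on the log2(RPKM + 1) scale (SE 0.092, adjusted p = 1.20e-05), a ratio of mean RPKM of 0.381, and was the only member of 7 called there, where 2.07% of all genes were called lower. The *Nr1d1* difference in control was −0.41 (adjusted p = 0.00365), under the fold asked for, and was called there with a pseudocount of 0.1 (−0.85). With TGF-β, *Npas2* (−1.53, adjusted p = 2.49e-11), *Nr1d1* (−1.10, adjusted p = 4.58e-09) and *Arntl* (−0.83, adjusted p = 8.52e-05) were lower in KO cells, 3 of 7 against 5.96% of all genes. The corresponding ratios of mean RPKM were 0.201, 0.267 and 0.500. *Nr1d1* passed the filter of this fit through its WT cultures with TGF-β (means of 2.70 alone and 2.02 with IL-4), as its KO mean was 0.817. With TGF-β plus IL-4, the same 3 genes were lower, by −1.19, −0.60 and −0.97 (adjusted p = 1.65e-09, 2.05e-05 and 1.05e-05), against 6.06% of all genes. The *Nr1d1* call in that culture was lost without mouse 1 or without mouse 2, where the fold fell below 1.5 (−0.56 in each case), and was kept without mouse 3 (−0.67).

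With IL-4 alone limma called no clock gene between genotypes, where 2.91% of all genes were called. At an unadjusted p below 0.05 there was 1 of 7, *Per1*, beside 2783 of all 9726 genes. *Npas2* averaged 3.49 ± 0.47 RPKM in WT and 3.23 ± 0.15 in KO cells (SD, n = 3), a difference of −0.08 (95% interval −0.27 to 0.11). *Nr1d1* differed by 0.01 (−0.18 to 0.20). The *Per1* difference was −0.26 with IL-4 (adjusted p = 0.0169) and −0.36 with both cytokines (adjusted p = 2.65e-04), neither past 1.5-fold. *Cry1* and *Cry2* differed by −0.19 to 0.05 between genotypes over the 4 cultures. *Per2*, outside the test, was at 0.726 to 0.750 RPKM in KO control and 0.428 to 0.553 in WT control. With no filter it was higher in KO cells by 0.20 in control, 0.16 with TGF-β, 0.22 with IL-4 and 0.06 with both. None of these was called (adjusted p by limma = 0.0620, 0.0894, 0.0403 and 0.559). In that fit *Clock* and *Per3* differed by −0.22 to 0.11.

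The 4 cultures that share a label number were taken as 1 mouse and not as separate animals. With the 4 averaged per mouse, 3 mice against 3, *Npas2* was lower in KO cells (−0.88, SE 0.060, adjusted p = 3.08e-05) and was the 1 clock gene of 7 called, against 5.08% of all genes. *Arntl* (−0.57, adjusted p = 7.74e-04) and *Nr1d1* (−0.53, adjusted p = 7.78e-05) were below a fold of 1.5 in this average over cultures.

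Whether the response itself differed between genotypes was tested as an interaction. The response of *Npas2* to TGF-β was smaller in KO than in WT cells (−0.81, SE 0.131, adjusted p = 1.59e-04) and so was that of *Nr1d1* (−0.69, SE 0.130, adjusted p = 7.77e-04). These 2 of 7 stand against 2.53% of all genes called lower, in a comparison that was added after the values had been seen. *Nr1d1* was among the 7 only because its high WT libraries with TGF-β lifted it past the filter. With no filter limma kept its call (adjusted p = 0.00115). The *Npas2* call was lost without mouse 1 (−0.67, adjusted p = 0.0433) and the *Nr1d1* call without mouse 2 (−0.62, adjusted p = 0.0678), without mouse 3 (−0.70, adjusted p = 0.0203) and with a pseudocount of 0.1 (−0.91, adjusted p = 0.0194). For TGF-β plus IL-4, the interactions of *Arntl* (−0.71, adjusted p = 0.0154), *Nr1d2* (−0.50, adjusted p = 0.0174) and *Npas2* (−0.47, adjusted p = 0.0137) were not called by limma, and 5.17% of all genes were. At an unadjusted p below 0.05 there were 4 of 7 members, beside 3110 of all 9726 genes. Paired by mouse, *Arntl* was called in this comparison (adjusted p = 0.00918). The IL-4 response of *Npas2* was larger in KO cells by 0.64 but was not called (adjusted p = 0.0358), against 0.113% of all genes, and was called with a pseudocount of 0.1 (1.18, adjusted p = 0.00667).

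**Figure D3:**
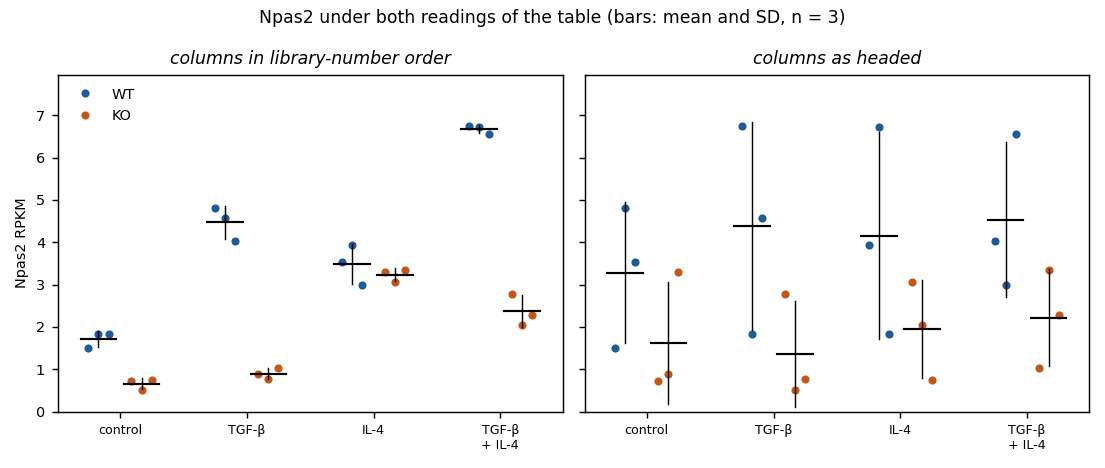
*Npas2* RPKM by culture (x axis) in WT (blue) and KO (orange) libraries, read in library-number order (left) and as headed (right), with bars for the mean and SD of 3 libraries. The same 24 values are plotted in both panels. The WT groups are separate on the left, and on the right WT control spans 1.502 to 4.80.

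Of 22 other clock pathway genes found in the table, 15 passed the filter on low values in the WT fit. These were regulators, kinases, ligases and outputs of the clock. With TGF-β, 1 of 15 was called higher and 1 lower in WT cells, against 3.47% and 2.34% of all genes. With IL-4 the counts were 1 and 0 (0.96% and 0.449%), and with both cytokines 1 and 0 (6.37% and 2.84%). In KO cells they were 0 and 0 with TGF-β (0.0208% in either direction), 1 and 0 with IL-4 (1.48% and 0.904%), and 1 and 0 with both (1.68% and 0.811%). The genes of these 15 called in any comparison were *Dbp*, *Nfil3* and *Bhlhe40*.

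*Rora*, which encodes an ROR receptor, averaged under 1 RPKM and was named after its values were seen. It was at 0.148 to 0.184 in WT control, 0.709 to 0.960 with TGF-β and 0.150 to 0.195 in KO cells with TGF-β.

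*Dbp*, a PAR bZIP factor and a direct output gene of BMAL1 and CLOCK, averaged 2.63 ± 0.34 RPKM in WT control and 5.94 ± 0.87 with TGF-β. With IL-4 it averaged 2.64 ± 0.69 and with both 8.66 ± 0.92 (SD, n = 3). The increases were 0.93 with TGF-β (adjusted p = 2.09e-04) and 1.41 with both (adjusted p = 4.23e-06). In KO cells *Dbp* stayed between 2.33 and 3.79 RPKM in all 12 libraries.

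*Nfil3*, a bZIP repressor that binds the same D-box elements as DBP, rose with IL-4 and not with TGF-β. It averaged 11.4 ± 1.2 RPKM in WT control, 8.83 ± 0.41 with TGF-β, 24.7 ± 1.4 with IL-4 and 16.5 ± 0.27 with both (SD, n = 3). In KO cells it averaged 7.20 ± 0.59 in control, 7.39 ± 0.73 with TGF-β, 25.7 ± 1.8 with IL-4 and 25.2 ± 1.7 with both. The increase with IL-4 was 1.05 in WT (adjusted p = 1.31e-06) and 1.70 in KO cells (adjusted p = 6.75e-08). *Bhlhe40* (DEC1), a repressor that competes at E-boxes, fell with TGF-β in WT cells by 0.83 (adjusted p = 6.68e-06), from 36.9 to 38.9 RPKM in control to 18.9 to 24.8. In KO control it was at 20.0 to 24.7, a difference from WT control of −0.75 (adjusted p = 9.15e-07).

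**Figure D4:**
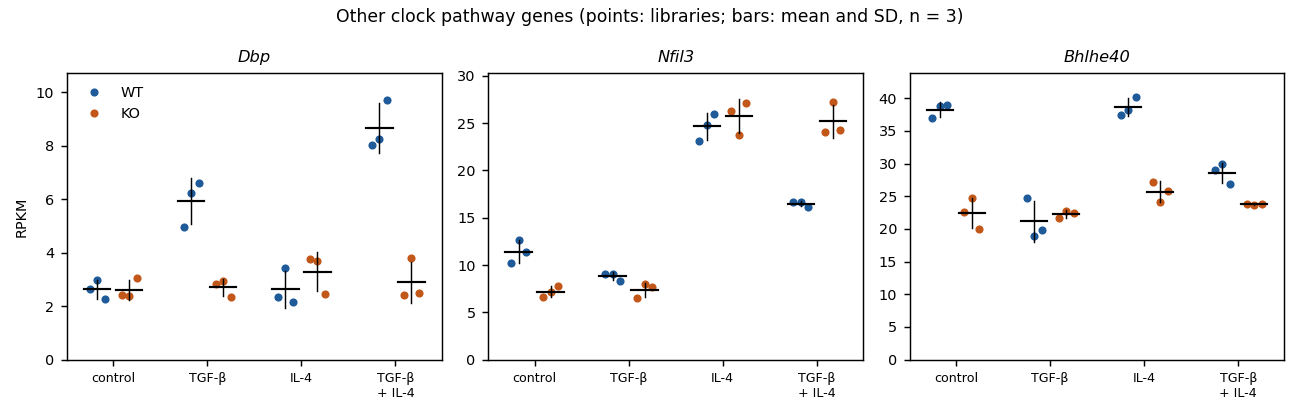
RPKM of *Dbp*, *Nfil3* and *Bhlhe40* by culture (x axis) in WT (blue) and KO (orange) cells, with 1 point per library and bars for the mean and SD of 3 libraries. *Dbp* is high in the WT cultures with TGF-β, and *Nfil3* is high with IL-4 in both genotypes.

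The genes most like the 3 most variable members were listed over the 24 libraries by Pearson correlation of log2(RPKM + 1) with the 9725 other genes, as a description. Libraries share cultures and mice, so these r values carry no test. For *Npas2* they were *Id1*, *Ccr4* and *Slc16a6* (r = 0.969 for each). For *Nr1d1* they were *Malt1*, *Galnt6* and *Smox* (0.956, 0.954 and 0.951), and for *Arntl* *Ppm1j*, *Txndc15* and *Prr13* (0.946, 0.942 and 0.938).

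Open chromatin at the clock genes was read from the DNase hypersensitive sites (DHSs) that the authors called in each of the 4 DNase-seq libraries. With 1 library per condition there is no replicate error and no test. The lists held 44298 sites for WT control, 33880 for WT TGF-β plus IL-4, 33665 for KO control and 27145 for KO TGF-β plus IL-4. All 10 clock genes had a DHS within 1000 bp of an annotated transcript start in each list, where 92.9%, 91.7%, 91.4% and 89.4% of all tested genes did. The count is close to the share over all genes and is no result about the members.

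The members differed in strength. The start-site DHS of *Arntl* had a fold enrichment of 13.3 in WT control, 10.5 in WT with both cytokines, 8.78 in KO control and 8.79 in KO with both, placing it in the top 2.87% to 8.64% of its lists. It covered the whole 250 bases printed above in all 4. For *Npas2* the site nearest its outermost start, about 521 bp before it, was listed in WT control and in KO TGF-β plus IL-4 only, at fold enrichments of 3.40 and 3.67. A second site near the start of a short annotated non-coding transcript inside the gene was in all 4 lists. In WT TGF-β plus IL-4 and KO control it was the only *Npas2* site within 1000 bp of an annotated start.

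Within 10 kb of *Npas2* there were 11 separate DHSs over the 4 lists, 7 of them in all 4. WT control and WT TGF-β plus IL-4 held 10 each and both KO lists 8. The strongest lay 174 kb along from the start, past the end of the gene, and had fold enrichments of 11.5 in WT control, 12.3 in WT with both cytokines, 9.67 in KO control and 7.82 in KO with both. Around *Arntl* there were 6 sites, of which 1, at the start, was in all 4 lists. WT control listed 5 of them, WT TGF-β plus IL-4 listed 4, KO control 2 and KO TGF-β plus IL-4 1. The total numbers of sites fell in the same order of lists. *Nr1d1* had 3 sites and *Nr1d2* 2, each in all 4 lists.

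**Figure D5:**
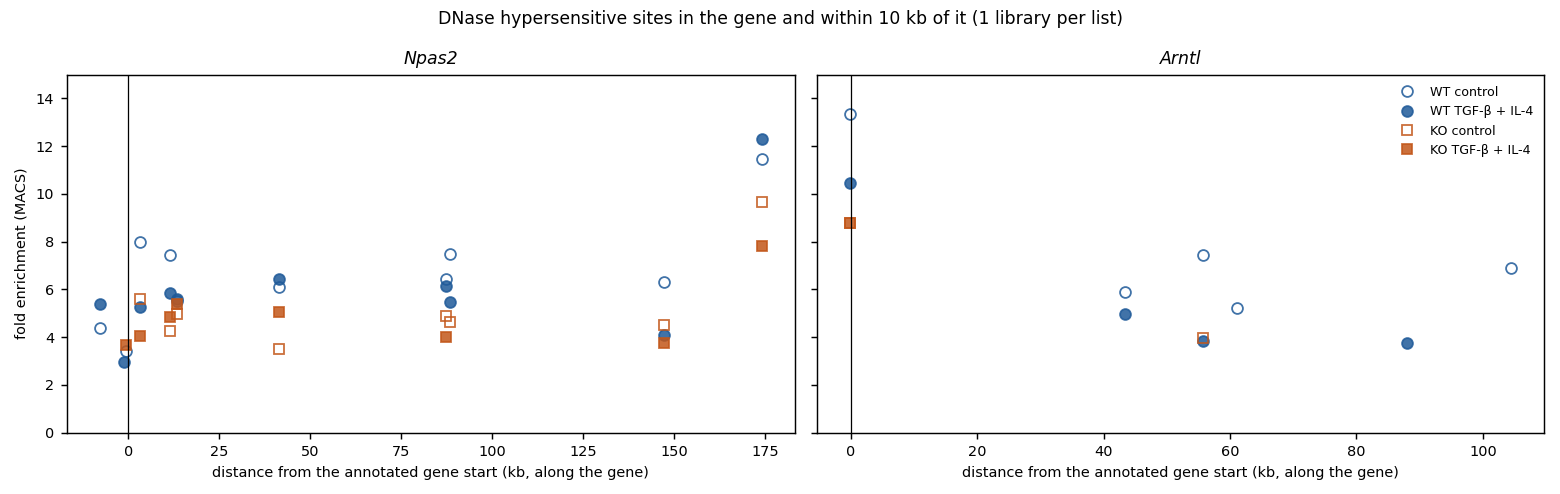
Fold enrichment of each DHS (y axis) against its distance from the annotated start of *Npas2* and *Arntl* (x axis, kb along the gene), for the 4 DNase-seq lists, 1 library each. The *Arntl* start site stands at 8.78 to 13.3 in all lists, and the strongest *Npas2* site, beyond the gene, at 7.82 to 12.3.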

How the data were processed

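RNA-seq (Smart-seq2) was made from 24 cultures and DNase-seq from 4. The authors mapped both kinds of library to the mm9 genome (Bowtie2), filtered out poorly mapped and duplicate reads, and deposited RPKM values per gene, computed with edgeR. The relative depth of the libraries, recovered from the steps of the deposited RPKM values, was 0.700 to 1.28 of the median library; total read numbers were not used. For DNase-seq the authors called narrow peaks with MACS2 in each library, and deposited a fold enrichment, a −log10 p-value and a −log10 q-value per peak. Versions were not given in the sources used here. The members and lists were chosen with earlier results of these data known. The named genes were all 10 members, pathway genes called in at least 1 comparison (at most 8), and the 3 genes most correlated with each of the 3 members whose group means varied most. *Rora* was named outside this rule, after its values had been seen.

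Values were analysed as log2(RPKM + 1) with limma 3.58.1 (R 4.3.3, trended variance), after dropping genes whose mean RPKM was under 1. WT cultures were compared in a fit of the 12 WT libraries, KO cultures in one of the 12 KO libraries, and genotypes and interactions in one of all 24. Genes were called at an adjusted p below 0.01 and a fold above 1.5, the study's own thresholds. The columns were read in library-number order. Same-numbered libraries of a genotype were taken to come from the same mouse, which the labels do not state. Their deviations correlated at −0.09 to 0.55 (median 0.06) in WT and −0.30 to 0.42 (median 0.19) in KO cells. Alternatives were the columns as headed, the 8 libraries matched to read counts, a pseudocount of 0.1, no filter, median-ratio scaling, only the compared groups, pairing by mouse and leaving out each mouse number. The 8 matched libraries are those of WT mice 1 and 3, so in WT comparisons that run and the one without mouse 2 are the same. The genotype interactions with TGF-β alone and IL-4 alone and the test on mouse means were added after values had been seen. The fit was tested on simulated data. Sequences were read from the mm9 genome with Python 3.11.15, at the outermost GENCODE gene start. A pathway gene and a sequence window are not reported here.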

Additional observations from a re-analysis of the deposited data

Results flagged for a closer look

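Responses that differed between genotypes by the interaction test were set apart for a closer look. The TGF-β response, as KO minus WT in log2(RPKM + 1), was lower for *Npas2* (−0.81), *Nr1d1* (−0.69) and *Dbp* (−0.90) and higher for *Bhlhe40* (0.83), which fell with TGF-β in WT cells and not in KO cells. For the response to TGF-β plus IL-4 the differences were −1.32 for *Dbp* and 1.18 for *Nfil3*, and for IL-4 alone 0.65 for *Nfil3*. *Nfil3* averaged 7.20 RPKM in KO control against 11.4 in WT control, and 25.7 against 24.7 with IL-4. Over all genes, 2.53% were called lower for the TGF-β interaction. In either direction 5.17% were called for TGF-β plus IL-4 and 0.113% for IL-4 alone. Groups of 3 libraries were too small for a test of single outlying libraries.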

How the results depend on the processing

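None of the 20 called differences of clock genes changed direction under any alternative run. With the columns as headed all 20 were lost, and the counts of genes called over the whole table fell to 0 in every comparison within a genotype and in the interactions, and to 39, 134, 33 and 59 for KO against WT in control, TGF-β, IL-4 and combined cultures. All 20 kept their call with median-ratio scaling and with no filter, 18 of 18 with only the compared groups, 13 of 13 with the replicate block (pairing by mouse), 19 of 20 with a pseudocount of 0.1, and 7 of 9 in the 8 libraries matched to read counts, where *Nr1d2* with both cytokines and *Nr1d1* against IL-4 fell below 1.5-fold. The run on those 8 libraries is the same as leaving out mouse 2 and is no separate check. The block changed 1 member call, that of *Arntl* given above, and moved the genes called for the genotype interaction with IL-4 from 11 to 18.

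The cytokine interaction in WT cells, with 173 genes called, gave 106 with no filter and 91 in the 8 matched libraries, and the KO response to TGF-β, with 2, gave 1 in the compared groups alone. Without 1 mouse number at a time, the counts ranged from 75 to 130 for WT IL-4 (main 138), 150 to 340 for WT TGF-β plus IL-4 against TGF-β (293), 0 to 91 for the cytokine interaction, 118 to 218 for KO IL-4 (229), 141 to 192 for KO TGF-β plus IL-4 (240), 109 to 297 for KO against WT with IL-4 (283), 269 to 638 for the genotype interaction with both cytokines (503), 256 to 345 with TGF-β (411) and 1 to 3 with IL-4, and were 0 for KO TGF-β. The causes were not tested. The 10 clock genes with a start-site DHS stayed 10 in every list at a −log10 q of at least 5, and were 9 within 500 bp in WT TGF-β plus IL-4 and KO control. *Per3* rested on 18 to 50 reads per library and *Per2* on 107 to 352. The filter on mean RPKM left *Clock*, *Per2* and *Per3* untested.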
